A study of Mus musculus with 20 samples.

Results

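The Zfp genes, whose symbols are Zfp followed by a number, encode zinc finger proteins, most of them with arrays of DNA-binding fingers. Of 235 such genes with a probe set on the array, 193 were bright enough to be followed through mouse preimplantation development. A gene was included where a probe set with exactly 1 gene symbol read at or above 82.6, the median of the whole table, on at least 4 of 20 arrays. Its brightest probe set stood for the gene. The 193 genes are part of 7490 named genes tested, and the other 42 Zfp genes stayed below the threshold. A gene present at 1 stage could pass only through that stage, so the counts below describe these 193 genes and not every Zfp gene. Just inside the threshold were Zfp850, Zfp853 and Zfp324, with the fourth highest reading at 84.8, 87.6 and 88.0, and just outside were Zfp783, Zfp24 and Zfp207, with 81.8, 82.1 and 82.3.

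Gene expression was measured on Affymetrix MOE430B arrays, a set of short oligonucleotide probes read as 1 intensity per probe set. The arrays carried amplified total RNA of mouse oocytes, of cleavage-stage embryos with 1, 2 or 8 cells, and of blastocysts, with 4 arrays for each, and in vitro transcription had amplified every sample in 2 rounds. The labels name no treatment and no genetic change, and neither strain, age, oocyte maturity nor the number of pooled embryos is stated there. Nothing says that the 4 arrays of a stage came from separate pools, so p-values reflect nothing beyond the spread of these samples, and that spread may be technical.

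Zinc finger proteins of the largest mammalian family pair an array of fingers that reads DNA with a KRAB domain, which recruits the corepressor Trim28 (KAP1) and through it the histone methyltransferase Setdb1 and heterochromatin proteins. Many of them silence retroelements, and a few protect the methylation of imprinted genes while the rest of the embryonic genome loses it. Other Zfp proteins act as partners of chromatin enzymes, as classical promoter-binding regulators, or in RNA and ribosome metabolism. Over the stages sampled, the egg's stored transcripts are replaced by products of the embryo's own genome, and the blastocyst then forms its trophectoderm and inner cell mass.

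The array medians averaged between 73.2 and 92.2 by stage. Here and below, a listed gene counts as measured only where a probe set with its symbol alone passed the threshold above. The others stayed below it or had no such probe set. Of 17 oocyte markers 9 were measured, and their summed intensity was 92161 to 107872 per oocyte array, 109889 to 132206 per 1-cell array, 43186 to 92633 per 2-cell array, 5099 to 6093 per 8-cell array and 21212 to 25918 per blastocyst array. Most of the blastocyst sum was Khdc3, at 20820 ± 2270 (SD, n = 4; the number behind every ± SD on an intensity below). Of 11 trophectoderm markers 3 were measured, with sums of 9998 to 14500 in blastocysts and at most 1435 before. Zygotic activation markers, 3 of 12 (Ubtfl1, Obox6 and Ddit4l), summed to at most 457 on oocyte and 1-cell arrays and to 13399 to 15154 at the 2-cell stage. Their sums were higher still at the 8-cell stage, at 18002 to 23711, and were 669.7 to 971.7 in blastocysts. Of the cumulus and granulosa markers 4 of 13 were measured, with sums of 2587 to 3195 at the 2-cell stage and 838.4 to 1891 elsewhere. Amhr2 alone read 2053 ± 284 at the 2-cell stage, whereas the granulosa gene Foxl2 read 579 ± 57.9 there and 756 ± 168 at the 1-cell stage. The 3 measured sperm markers summed to at most 909.9 on any array, and no blood marker counted as measured in this sense. The control for 18S ribosomal RNA, taken at its middle probe set, read 37010 ± 4510 on 1-cell arrays and between 650.2 and 3282 on average at the other stages, and its part in the 1-cell results was not tested.

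Of the 193 genes 118, or 61.1%, passed limma's moderated F test for a change between any stages, against 59.5% of all named genes. Stage levels moved little for the group as a whole: the median of log2(value + 20) over the genes averaged 7.53 ± 0.07 (SD, n = 4 arrays) for oocytes, then 7.51 ± 0.04 (1-cell), 7.64 ± 0.04 (2-cell), 7.61 ± 0.04 (8-cell) and 7.58 ± 0.07 (blastocyst). Single genes moved far more. The range between the highest and the lowest stage mean had a median of 1.27 log2 units, against 1.19 for all named genes, and reached 3 units or more in 28 genes, or 14.5% against 11.6%. In 72 genes, or 37.3% against 40.5%, all 5 stage means lay within 1 log2 unit.

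The stage with the highest mean was the oocyte for 33 genes, or 17.1% against 16.7% of all named genes. It was the 1-cell stage for 32, or 16.6% against 19.6%, and the 2-cell stage for 35, or 18.1% against 15.3%. For 45 it was the 8-cell stage, or 23.3% against 25.9%, and for 48 the blastocyst, or 24.9% against 22.5%. All 4 arrays of the stage with the highest mean stood above the other 16 in far fewer genes. They did so in oocytes for 8 genes, or 4.15% against 3.44% of all named genes, and at the 1-cell stage for 6, or 3.11% against 2.83%. The 2-cell stage stood above all others in 6 genes, or 3.11% against 2.23%, the 8-cell stage in 5, or 2.59% against 3.15%, and the blastocyst in 10, or 5.18% against 5.77%. The oocyte genes were Zfp184, Zfp414, Zfp438, Zfp473, Zfp583, Zfp653, Zfp78 and Zfp839. The 1-cell genes were Zfp449, Zfp513, Zfp664, Zfp873, Zfp944 and Zfp957, and the 2-cell genes Zfp367, Zfp560, Zfp647, Zfp707, Zfp775 and Zfp939. At the 8-cell stage they were Zfp148, Zfp180, Zfp217, Zfp579 and Zfp689, and in blastocysts Zfp317, Zfp384, Zfp408, Zfp507, Zfp512, Zfp667, Zfp819, Zfp871, Zfp934 and Zfp938.

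**Figure D1:**
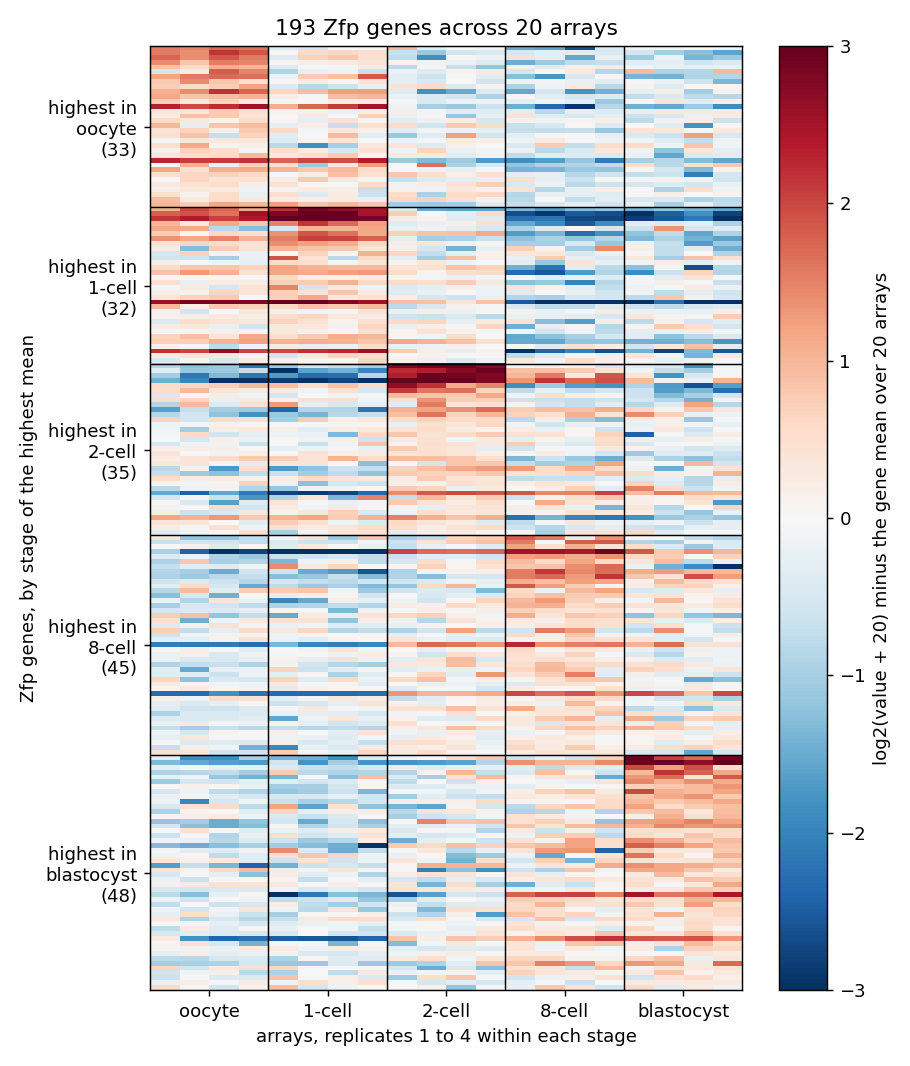
Each row is 1 of 193 Zfp genes and each column 1 of 20 arrays; the colour is log2(value + 20) minus the gene's mean over all arrays, cut at 3 log2 units, and rows are grouped by the stage with the highest mean. Strong, narrow bands appear in every group, while most rows are pale.

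Between consecutive stages the Zfp genes rose and fell about as often as named genes in general. A change was called at an adjusted p under 0.05 in limma's moderated test with Benjamini-Hochberg adjustment over 15234 probe sets. From oocyte to 1-cell 5 genes were higher, 2.59% against 3.46% of all named genes, and 9 were lower, 4.66% against 6.26%. From 1-cell to 2-cell 28 were higher, 14.5% against 13.4%, and 25 lower, 13% against 13%. From 2-cell to 8-cell 24 were higher, 12.4% against 15%, and 35 lower, 18.1% against 17.7%. From 8-cell to blastocyst 21 were higher, 10.9% against 11.1%, and 18 lower, 9.33% against 7.78%. Across the whole period, blastocyst against oocyte, 48 were higher, 24.9% against 21.9%, and 48 were lower, 24.9% against 21.1%. These shares are close to the background, so the counts themselves are no result about Zfp genes. Consecutive comparisons share the arrays of a stage, and their values are given side by side only.

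The median change of the 193 genes was -0.02 log2 units into the 1-cell stage, 0.07 into the 2-cell stage, 0.04 into the 8-cell stage and 0.00 into the blastocyst, and 0.06 over the whole period. For all named genes these medians were 0.00, 0.02, 0.05, -0.04 and 0.04. All log2 changes are differences of log2(value + 20), which understates the change of genes with low readings. Centring each array on its median moved all changes by 0.13 from 1-cell to 2-cell and by 0.15 from oocyte to blastocyst. The 1-cell counts were the least firm. With quantile normalization 1 gene was higher and 6 were lower there. The 5 rises became 2 without oocyte replicate 1, 3 without oocyte replicate 2, 2 without oocyte replicate 3, 2 without 1-cell replicate 1, 1 without 1-cell replicate 2 and 2 without 1-cell replicate 3. The 9 falls became 4 without 1-cell replicate 1, and the 18 falls from 8-cell to blastocyst became 11 without blastocyst replicate 3.

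**Figure D2:**
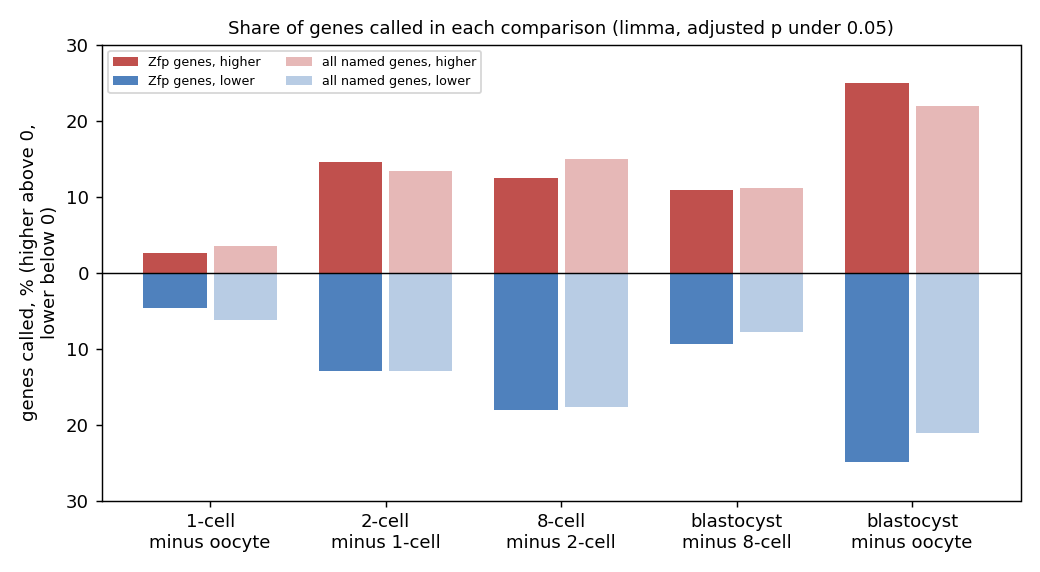
Bars give the percentage of genes called higher (above 0) and lower (below 0) in each comparison by limma at an adjusted p under 0.05, dark for the 193 Zfp genes and pale for all 7490 named genes. The dark and pale bars are of similar height in every comparison, for example 14.5% and 13.4% higher from 1-cell to 2-cell.

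Of 21 listed zinc finger proteins that silence retroelements and imprints or work with chromatin enzymes, 14 were measured. From 1-cell to 2-cell 3 rose and the other 11 did not pass, at the 8-cell stage 1 rose and 3 fell, and in the blastocyst 1 rose and 3 fell. With 14 genes these counts are near the shares of all named genes, 13.4% higher and 13% lower into the 2-cell stage, 15% and 17.7% into the 8-cell stage, and 11.1% and 7.78% into the blastocyst. The median change of the list was 0.40 log2 units from 1-cell to 2-cell, against 0.02 for all named genes, and 0.09, against 0.05, from 2-cell to 8-cell. Between oocyte and blastocyst 5 of the 14 were higher and 2 lower, against 21.9% and 21.1% of all named genes.

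Zfp809 recognizes the primer binding site of murine leukaemia viruses and recruits Trim28 to silence them. It read 98, 80.5, 67.9 and 11.5 on the 1-cell arrays and 401, 349, 434 and 373 on the 2-cell arrays. The groups did not overlap, and the change was 2.43 ± 0.30 (SE, adjusted p = 8.27e-07). It then read 434 ± 89.2 (SD, n = 4) at the 8-cell stage and 609 ± 176 in blastocysts, with no further step called. Zfp445, which shares the protection of imprints with Zfp57, read 539.7, 478, 516 and 466 at the 1-cell stage and 957, 1121, 1662 and 1333 at the 2-cell stage. All 2-cell arrays were above all 1-cell arrays, with a change of 1.28 ± 0.22 (SE, adjusted p = 0.000105), and the level in blastocysts was 1344 ± 463. Zfp819, which is linked to retroelement repression in pluripotent cells, read 36.5, 124, 60.3 and 30 on the 8-cell arrays and 132, 328, 242 and 154 on the blastocyst arrays. The blastocyst arrays were all higher, and the change was 1.55 ± 0.44 (SE, adjusted p = 0.0173). It no longer passed without 8-cell replicate 1 (adjusted p = 0.0578), 8-cell replicate 4 (0.0606) or blastocyst replicate 2 (0.0698). From oocyte, at 21.4 ± 3.2, to blastocyst, at 214 ± 90, it rose by 2.42 ± 0.44 (SE, adjusted p = 8.69e-05).

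Zfp217 brings the CtBP and CoREST corepressors to DNA and is an amplified oncogene in breast cancer. It read 8.9, 9, 11.9 and 6.2 on the 1-cell arrays, 1138, 895, 864 and 925 on the 2-cell arrays and 1585, 1619.8, 1502 and 2098 on the 8-cell arrays. The 1-cell readings all lay far below the table's median and the 8-cell readings stood above all 16 others. The change from 1-cell to 2-cell was 5.07 ± 0.32 (SE, adjusted p = 9.17e-12), that to the 8-cell stage was 0.82 ± 0.32 (SE, adjusted p = 0.0585) and did not pass, and that to the blastocyst level of 686 ± 238 was -1.33 (adjusted p = 0.00433). Zfp644, a partner of the H3K9 methyltransferases G9a and GLP, read 1128, 645, 707 and 814 at the 8-cell stage and 286, 363, 204 and 364 in blastocysts. The stages did not overlap, with a change of -1.38 ± 0.19 (SE, adjusted p = 1.17e-05). Its other probe set read 125.5 ± 21.4 and 109.5 ± 31.4, a change of -0.19 that did not pass (adjusted p = 0.713). That probe set had been called lower 1 step earlier, from 235 ± 45.6 at the 2-cell stage (-0.81, adjusted p = 0.0245). In that step the brightest changed by 0.09 (adjusted p = 0.788), so the 2 probe sets differed on when the fall came.

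Zfp592 and Zfp687, both partners of the chromatin reader Zmynd8, fell from the 2-cell to the 8-cell stage. Zfp592 went from 1049 ± 253 to 584 ± 111, a change of -0.81 ± 0.18 (SE, adjusted p = 0.00154), and its other probe sets read 483 ± 115 to 272 ± 47.9 and 468 ± 62.4 to 183.7 ± 33.2. Zfp687 went from 376 ± 54.1 to 257 ± 65 (adjusted p = 0.0336), a call that ended without 2-cell replicates 1, 2 or 3 or 8-cell replicates 2 or 4, at adjusted p from 0.0531 to 0.128. Zfp518a fell from 1082 ± 308 to 361 ± 12.8, a change of -1.50 ± 0.24 (SE, adjusted p = 3.26e-05). The SUMO ligase Zfp451 rose from 222 ± 47.9 at the 2-cell stage to 515 ± 140 at the 8-cell stage (adjusted p = 0.00249) and read 233 ± 124 in blastocysts (adjusted p = 0.00356). That fall was called with overlapping arrays, its other probe sets changed by -0.33 and -0.50 (adjusted p = 0.488 and 0.542), and with the mean of its probe sets it did not pass (-0.66, adjusted p = 0.0672). Zfp462, another partner of G9a and GLP, was higher in blastocysts, at 295 ± 49.1, than in oocytes, at 197 ± 35.3 (adjusted p = 0.0183). That call ended without oocyte replicate 4 (0.0785) or blastocyst replicate 3 (0.0661), and with quantile normalization or median centring. A dimmer probe set of Zfp462 rose by 1.19 from oocyte to blastocyst (adjusted p = 0.00161). From 8-cell to blastocyst it rose from 58.5 ± 20.1 to 158 ± 42 (1.18, adjusted p = 0.00499), where the brightest changed by 0.13 (adjusted p = 0.715).

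The remaining members of the silencing and chromatin list had no called change in any of these comparisons by their brightest probe set. Zfp277, a partner of the Polycomb protein Bmi1, read between 227 ± 56.4 at the 8-cell stage and 355 ± 120 at the 1-cell stage. Zfp618, a partner of the hemimethylated DNA reader family of Uhrf proteins, read between 164 ± 61 and 222 ± 30.3, but another of its probe sets was called higher on the 8-cell arrays than on the 2-cell arrays (130 ± 50.6 to 273 ± 67.5, adjusted p = 0.0069). Zfp410, known for activating the remodeller gene Chd4, read between 25.1 ± 12.2 and 69.9 ± 51.5, and its 1-cell replicate 1 read 116.4 against 20.5 to 27.5 on the other 3. Zfp827, which brings the NuRD complex to telomeres in some tumour cells, read between 14.4 ± 5.39 and 132 ± 75.6, and its changes did not pass in any of the 5 comparisons although the F test did (adjusted p = 0.00571).

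Partners that KRAB zinc finger proteins need were listed apart, and 16 of 42 were measured. From oocyte to 1-cell 1 rose and 2 fell, at the 2-cell stage 4 rose and 6 fell, at the 8-cell stage 3 rose and 4 fell, and in the blastocyst 3 rose and the other 13 did not pass. The shares of all named genes called higher and lower were 3.46% and 6.26%, 13.4% and 13%, 15% and 17.7%, and 11.1% and 7.78% in these steps. The median change was -0.14 log2 units into the 2-cell stage and 0.24 into the 8-cell stage, against 0.02 and 0.05 for all named genes. The corepressor Trim28 read 2182, 2399, 3109.5 and 2983 on the 2-cell arrays and 8099.5, 8051, 8731 and 10059 on the 8-cell arrays. All 8-cell arrays were higher, with a change of 1.71 ± 0.17 (SE, adjusted p = 1.4e-08), and the blastocyst level was 9557 ± 701. Trim28 was read by an x_at probe set, a type that can bind related sequences. Atf7ip2, a relative of the Setdb1 cofactor Atf7ip, rose from 38.1 ± 26.3 at the 1-cell stage to 536 ± 172 at the 2-cell stage, by 3.35 ± 0.34 (SE, adjusted p = 3.45e-08), and fell to 136 ± 18.2 by the 8-cell stage. The H3K9 methyltransferase gene Suv39h2 fell from 378 ± 43.5 to 21.6 ± 7 between the 2-cell and the 8-cell stage, a change of -3.27 ± 0.25 (SE, adjusted p = 2.6e-10). The maintenance methyltransferase Dnmt1, whose probe set is of the x_at type, went from 9009 ± 976 in oocytes to 178 ± 108 at the 8-cell stage, with a called fall at each of the 3 steps. Tasor, a subunit of the HUSH silencing complex, went from 34.1 ± 16.5 to 104 ± 32.7 between the 1-cell and 2-cell stage (adjusted p = 0.00516).

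Of 17 listed zinc finger proteins of RNA and ribosome metabolism, Zfp207 and Zfp830 stayed below the threshold and 5 were measured. Of these 5, 2 had a called change between stages, Zfp593 and Zfp622. Into the 1-cell stage 2 fell, into the 2-cell stage 1 rose and into the 8-cell stage 1 rose. Of all named genes 6.26% were lower in the first of these steps, and 13.4% and 15% were higher in the other 2. The median change of the 5 was 0.89 log2 units into the 2-cell stage and 0.37 into the 8-cell stage, against 0.02 and 0.05 for all named genes. Zfp622, a cytoplasmic maturation factor of the large ribosomal subunit, read 19.9, 16.8, 19.7 and 32.9 on the 1-cell arrays and 697, 933, 1022 and 968 on the 2-cell arrays. The groups were far apart, with a change of 4.45 ± 0.23 (SE, adjusted p = 2.48e-13), and the level was 872 ± 185 at the 8-cell stage and 566 ± 131 in blastocysts. Zfp593, which takes part in the nuclear export of the same subunit, read 36.6, 90.8, 218 and 199.8 on the 2-cell arrays and 1149, 1364, 1397 and 958 on the 8-cell arrays. No array overlapped, and the change was 3.18 ± 0.40 (SE, adjusted p = 1.04e-06). Both are read by x_at probe sets, which can bind related sequences.

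The oocyte and 1-cell levels of these ribosome factors differed less firmly. Zfp593 was at 225 ± 93.6 in oocytes and 77.7 ± 47.9 at the 1-cell stage, a change of -1.41 ± 0.40 (SE, adjusted p = 0.0322) that ended without oocyte replicate 3 (0.0944), oocyte replicate 4 (0.124), 1-cell replicate 1 (0.158) or 1-cell replicate 2 (0.0865). Zfp622 was at 53.2 ± 21.6 and 22.3 ± 7.19 (adjusted p = 0.0435), with overlapping arrays, and that call ended without any of 10 arrays, at adjusted p of up to 0.153. Zfp385b read 55.6 ± 49.1 at the 1-cell stage and 190.3 ± 64.5 at the 8-cell stage. Zfp385c, of the same family of double-stranded RNA binding fingers, read 322 ± 46.1 at the 2-cell stage and 152 ± 95.2 in blastocysts. Zfp638, a partner of the HUSH complex, stayed between 59.8 ± 26.3 and 84.4 ± 44.4. None of these last 3 had a called change in any of the 5 comparisons, although Zfp385b passed the F test (adjusted p = 0.0153).

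Of 22 listed regulators of pluripotency and development, Zfp703 stayed below the threshold and 9 were measured. Zfp367 rose into the 2-cell stage while the other 8 did not pass, 4 rose and 1 fell into the 8-cell stage, and 1 rose and 3 fell into the blastocyst. Of all named genes 13.4% were higher and 13% lower in the first of these steps, 15% and 17.7% in the next, and 11.1% and 7.78% in the last. The median change of the list was -0.10, 0.47 and -0.20 log2 units in these steps, against 0.02, 0.05 and -0.04 for all named genes. Zfp148, a factor of GC-rich promoters, read 130, 167, 167 and 138 on the 2-cell arrays and 532, 553, 484 and 578 on the 8-cell arrays. The 8-cell arrays were above all 16 others, with a change of 1.71 ± 0.21 (SE, adjusted p = 8.05e-07). Its blastocyst level was 321 ± 72.8 (adjusted p = 0.0205), a fall that ended without 8-cell replicate 2 (0.0502), 8-cell replicate 4 (0.0522) or blastocyst replicate 3 (0.089). Its other probe set read 90.8 ± 31.4 and 152 ± 15.8 (adjusted p = 0.0695). Zfp384, an architectural factor of bone and blood cells, rose from 334 ± 71.9 at the 2-cell stage to 697 ± 62.8 at the 8-cell stage (adjusted p = 3.31e-05) and to 1140 ± 209 in blastocysts (adjusted p = 0.0061), and its 4 blastocyst arrays stood above all others.

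The remaining regulators on that list had less firm calls or none. Zfp335, a factor of neural progenitors, read 317 ± 58.9 on 2-cell arrays and 445 ± 67 on 8-cell arrays (adjusted p = 0.0476), a call that ended without any of 12 arrays, at up to 0.153. Zfp521, a partner of early B-cell factors, read 31.4 ± 13 and 114 ± 48.6 (adjusted p = 0.0264), a call lost without 2-cell replicate 4 (0.0883), 8-cell replicate 3 (0.0714) or 8-cell replicate 4 (0.0816). Zfp292 read 203 ± 107 at the 8-cell stage and 52.7 ± 24.2 in blastocysts (adjusted p = 0.0499), with overlapping arrays, and the call ended without any of 14 arrays, at up to 0.158. Zfp322a, an activator of pluripotency genes in stem cells, read between 124 ± 18.8 and 193 ± 24, Zfp365, linked to genome stability, between 75.3 ± 31.8 and 125 ± 30.3, and Zfp516, a factor of brown fat, between 138 ± 17.9 and 276 ± 200. None of these last 3 passed the F test.

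From oocyte to 1-cell the clearest changes were falls of single genes. Zfp839 read 1512, 1448, 1720.5 and 1610 on the oocyte arrays and 377, 355, 502 and 531 on the 1-cell arrays. Every oocyte array was above all 16 others, and the change was -1.80 ± 0.30 (SE, adjusted p = 0.000254). Its level fell again to 188 ± 126 at the 8-cell stage, from 607 ± 289 at the 2-cell stage (adjusted p = 0.000116), and rose to 517 ± 38.9 in blastocysts (adjusted p = 0.000626). Zfp653 read 788, 702, 1220.2 and 992 in oocytes and 265, 394, 399 and 377 at the 1-cell stage. Here too the oocyte arrays stood above all others, with a change of -1.31 ± 0.23 (SE, adjusted p = 0.000366), and the level went on to 152 ± 32.3 at the 2-cell stage (adjusted p = 0.000456). Zfp583 read 269, 241, 272 and 382 on the oocyte arrays, and 114, 76.1, 91.1 and 130.1 on the 1-cell arrays. No array overlapped, and the change was -1.34 ± 0.28 (SE, adjusted p = 0.00224). Zfp707 was lower at the 1-cell stage, 28.4 ± 19.2 against 83.5 ± 28.7 (adjusted p = 0.0166), a call that ended without oocyte replicate 1 (0.0739) or 1-cell replicate 1 (0.0811). Zfp184 read 259.7 ± 40.2 in oocytes and 102 ± 39 at the 1-cell stage (adjusted p = 0.0797), which did not pass although all oocyte arrays were above the rest.

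Among the 5 genes higher at the 1-cell stage than in oocytes, Zfp513 was the only 1 whose call held in every alternative tried. Zfp513, a regulator of photoreceptor genes, read 629, 388, 574 and 522 in oocytes and 980.1, 1403, 1160.2 and 829 at the 1-cell stage. The groups did not overlap, with a change of 1.02 ± 0.22 (SE, adjusted p = 0.00347). Zfp957 went from 1720 ± 199 to 3197 ± 672 (adjusted p = 0.0266) and its other probe set from 472 ± 98.5 to 892 ± 286 (adjusted p = 0.0473). The call on Zfp957 ended without oocyte replicates 1 or 3 or 1-cell replicates 1 or 2, at adjusted p from 0.0739 to 0.113. Zfp873 went from 236 ± 80.2 to 499 ± 96.8 (adjusted p = 0.0398), a call that ended without oocyte replicates 1, 3 or 4 or 1-cell replicates 2, 3 or 4, at up to 0.142. Zfp664 went from 1283 ± 302 to 2301 ± 642 (adjusted p = 0.0344; by its other probe set 0.26, adjusted p = 0.811), which ended without oocyte replicates 2 or 4 or 1-cell replicates 1, 2 or 3, at up to 0.157. Zfp735 went from 672 ± 211 to 1363 ± 407 (adjusted p = 0.0356), with overlapping arrays, and the call ended without replicates 1, 2 or 3 of either stage, at up to 0.159.

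The step from 1-cell to 2-cell held the largest rise of any Zfp gene, 6.07 log2 units in Zfp367, and a set of falls of 2.5 units or more. Promoters of 3 genes that rose and 3 that fell are shown because these genes moved in opposite directions in the same comparison. Each sequence holds 250 bases before and 50 bases after the annotated start, from RefSeq on GRCm38.p6, written 5′ to 3′ on the gene's strand. Capitals mark matches, on either strand, to 8 motifs. These were GGATTA (bicoid-type homeodomains), CCAAT (NF-Y), GGGCGG (the GC box), TATAAA (the TATA box), GCATGCGC (nuclear respiratory factor), ACTACAATT (the ZNF143 type), CCGGAAGT (ETS factors) and TTTGGCGC (E2F), none of which is contained in another. The promoters that rose are Zfp367, chr13:64153150-64153449 on the minus strand, Zfp217, chr2:170142626-170142925 on the minus strand, and Zfp775, chr6:48601757-48602056 on the plus strand. Those that fell are Zfp873, chr10:82047873-82048172 on the plus strand, Zfp383, chr7:29908267-29908566 on the plus strand, and Zfp957, chr14:79247318-79247617 on the minus strand.
Zfp367: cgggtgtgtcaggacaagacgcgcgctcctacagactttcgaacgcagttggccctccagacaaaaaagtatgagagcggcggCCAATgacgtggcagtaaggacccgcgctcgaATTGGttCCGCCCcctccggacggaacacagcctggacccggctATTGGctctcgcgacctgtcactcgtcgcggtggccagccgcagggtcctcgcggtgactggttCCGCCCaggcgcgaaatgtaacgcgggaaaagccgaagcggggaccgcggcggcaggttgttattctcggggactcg
Zfp217: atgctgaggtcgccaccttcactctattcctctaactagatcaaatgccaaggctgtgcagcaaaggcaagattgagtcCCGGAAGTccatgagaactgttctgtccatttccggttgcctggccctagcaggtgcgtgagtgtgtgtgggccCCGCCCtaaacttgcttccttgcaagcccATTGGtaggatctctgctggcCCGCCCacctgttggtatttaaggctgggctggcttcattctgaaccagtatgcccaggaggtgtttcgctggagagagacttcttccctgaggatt
Zfp775: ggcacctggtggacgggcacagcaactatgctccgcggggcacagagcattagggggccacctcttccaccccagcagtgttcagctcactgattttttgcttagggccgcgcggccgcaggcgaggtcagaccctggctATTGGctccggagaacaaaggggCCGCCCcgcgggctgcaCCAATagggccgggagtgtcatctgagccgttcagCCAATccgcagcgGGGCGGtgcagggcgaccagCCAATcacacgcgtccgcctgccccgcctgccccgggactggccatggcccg
Zfp873: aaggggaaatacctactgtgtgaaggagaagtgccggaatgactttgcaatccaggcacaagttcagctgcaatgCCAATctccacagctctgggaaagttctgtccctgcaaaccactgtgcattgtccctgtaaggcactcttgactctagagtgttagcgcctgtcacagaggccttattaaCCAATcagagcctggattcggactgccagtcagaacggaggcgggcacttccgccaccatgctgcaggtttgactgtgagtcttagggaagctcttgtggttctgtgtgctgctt
Zfp383: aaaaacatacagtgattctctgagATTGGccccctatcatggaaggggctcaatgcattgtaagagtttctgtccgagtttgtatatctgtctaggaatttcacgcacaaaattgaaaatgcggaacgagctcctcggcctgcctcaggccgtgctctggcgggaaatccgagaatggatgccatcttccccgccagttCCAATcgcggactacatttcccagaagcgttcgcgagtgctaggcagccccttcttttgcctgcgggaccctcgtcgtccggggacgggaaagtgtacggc
Zfp957: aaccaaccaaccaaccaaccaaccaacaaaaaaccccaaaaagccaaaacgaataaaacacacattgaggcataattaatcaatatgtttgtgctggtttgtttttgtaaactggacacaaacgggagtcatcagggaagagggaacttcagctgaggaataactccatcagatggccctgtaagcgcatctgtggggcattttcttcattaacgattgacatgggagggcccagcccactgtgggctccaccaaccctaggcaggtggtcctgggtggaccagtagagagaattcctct

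The promoters of Zfp367 and Zfp775 each held several CCAAT boxes and GC boxes, and those of Zfp873 and Zfp383 held CCAAT boxes alone. The 300 bases of Zfp957 held none of the 8 motifs, which says only that these letters are not in this window. GC content was 64% for Zfp367, 54% for Zfp217, 68% for Zfp775, 52% for Zfp873, 53.7% for Zfp383 and 47% for Zfp957. Promoters were found for 160 of the 193 genes, and for 30 of these with several annotated starts that listed on top was used.

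Over all 160 promoters, CCAAT was found in 43.8%, against 37.8% of promoters of all named genes tested and 37.9% of all 27025 RefSeq promoters of that length. GGGCGG was in 47.5%, against 56.2% and 35.9%. CCGGAAGT was in 12.5%, or 20 promoters, against 6.4% and 4%. ACTACAATT was in 3.12%, or 5 promoters, against 0.554% and 0.433%, and GCATGCGC in 6.25%, or 10, against 4.6% and 2.8%. TTTGGCGC was in 2.5%, against 0.99% and 0.537%, TATAAA in 6.25%, against 7.94% and 14.2%, and GGATTA in 6.25%, against 6.08% and 7.16%. Of the genes that rose from 1-cell to 2-cell 24 had a promoter, of which 58.3% held CCAAT and 66.7% held GGGCGG. Of the genes that fell 22 had one, of which 45.5% held CCAAT and 40.9% held GGGCGG. From 2-cell to 8-cell the order for GGGCGG was the reverse. It was in 52.6% of 19 promoters of genes that rose and 64.5% of 31 of genes that fell, and CCAAT in 47.4% and 41.9%. These shares rest on few promoters and were not tested, and a match is neither a binding site nor a cause.

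Zfp367, which is known as an activator of a fetal globin gene, was the gene with that largest rise. It read 7.3, 1.8, 9.2 and 4.7 on the 1-cell arrays, 1807, 1786, 1929 and 1338 on the 2-cell arrays, 469, 846, 619 and 722 on the 8-cell arrays and 358, 157, 147 and 379 on the blastocyst arrays. Readings at the 1-cell stage lay far below the table's median, and those at the 2-cell stage stood above all 16 others. The change from 1-cell to 2-cell was 6.07 ± 0.33 (SE, adjusted p = 7.6e-13), and those to the 8-cell stage and the blastocyst were -1.36 (adjusted p = 0.00279) and -1.37 (adjusted p = 0.00488). A dimmer probe set of the gene read 106 ± 27.3 at the 1-cell stage and 198 ± 60.5 at the 2-cell stage, a change of 0.77 that did not pass (adjusted p = 0.178), nor did its later changes of -0.98 and -0.36 (adjusted p = 0.0643 and 0.632).

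Zfp647 had the most transient profile among genes highest at the 2-cell stage, with a gap of 3.04 log2 units to the stage next in order. It read 61.7, 103, 87.3 and 69.2 at the 1-cell stage, 1220.5, 1479, 1455 and 1157 at the 2-cell stage and 145, 171, 168 and 98 at the 8-cell stage. The 2-cell arrays overlapped with no other, and the changes were 3.76 ± 0.32 (SE, adjusted p = 2.07e-09) and -3.04 ± 0.32 (SE, adjusted p = 5.06e-08). Zfp707, read by an s_at probe set shared by several transcripts, gave 2.8, 38.3, 47 and 25.3, then 822, 882, 1164 and 1313, then 305, 304, 282 and 215 at those stages. It rose by 4.55 ± 0.30 (SE, adjusted p = 3.05e-11) and fell by 1.83 log2 units afterwards (adjusted p = 4.27e-05). Zfp775 gave 32.2, 14.3, 15.4 and 73, then 843, 1285, 1219 and 1145, then 317, 476, 191 and 601. Its 2-cell arrays were the highest throughout, with changes of 4.52 ± 0.42 (SE, adjusted p = 8.09e-09) and -1.55 ± 0.42 (SE, adjusted p = 0.00611).

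**Figure D3:**
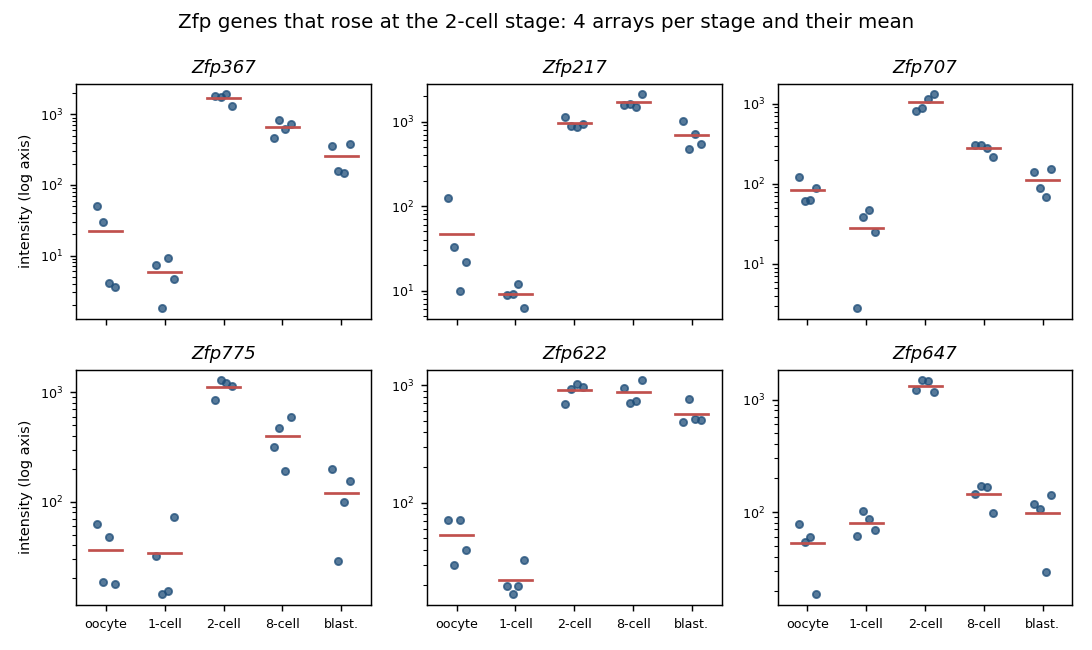
Points are the 4 arrays of each stage and bars their mean, as intensity on a log axis, for 6 Zfp genes that rose from the 1-cell to the 2-cell stage. In all 6 the 2-cell points lie above every oocyte and 1-cell point, as in Zfp367 at 1338 to 1929 against at most 51.2, whereas the later course differs between genes.

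Further genes rose at the 2-cell stage. Zfp599 read 24.9, 9.9, 7.9 and 10.7 at the 1-cell stage and 207, 361, 332 and 274 at the 2-cell stage. The groups did not overlap, the change was 3.23 ± 0.30 (SE, adjusted p = 7.88e-09), and the level was 366 ± 117 at the 8-cell stage. Zfp637, Zfp949, Zfp800, Zfp974, Zfp369, Zfp263 and Zfp617 rose too, by 3.44, 2.92, 2.05, 2.05, 1.74, 1.65 and 1.60 log2 units, with adjusted p from 6.52e-08 to 0.000818 for all but Zfp637 (adjusted p = 5.09e-10). These 8 genes were chosen after their values were seen, and in all of them the 2-cell arrays stood above the 1-cell arrays.

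The largest falls from 1-cell to 2-cell were those of Zfp873, Zfp383, Zfp957, Zfp735, Zfp449 and Zfp58. Zfp873 read 383, 613, 528 and 472 on the 1-cell arrays and 49, 10.2, 9.2 and 9.6 on the 2-cell arrays. No array overlapped, and the change was -3.81 ± 0.31 (SE, adjusted p = 1.17e-09). Zfp383 read 1710.5, 2064, 1971 and 2676 at the 1-cell stage, against 221, 188, 226 and 139 at the 2-cell stage. The groups did not overlap, with a change of -3.32 ± 0.20 (SE, adjusted p = 7.48e-12), but a dimmer probe set of the gene read 128 ± 52.8 and 113 ± 34.8 (change -0.11, adjusted p = 0.847). Zfp957 read 4114, 3279.9, 2755 and 2638 at the 1-cell stage, against 417, 375, 277 and 264 at the 2-cell stage. The change was -3.19 ± 0.24 (SE, adjusted p = 3.19e-10), and a further one, to 46.6 ± 14.4 at the 8-cell stage, was -2.41 ± 0.24 (SE, adjusted p = 2.56e-08). A dimmer probe set of Zfp957 fell as well, from 892 ± 286 to 362 ± 28.8 (adjusted p = 0.00113). Zfp735 read 1172, 1867, 1485 and 927 at the 1-cell stage, against 263, 156, 118 and 233 at the 2-cell stage, a change of -2.71 ± 0.29 (SE, adjusted p = 1e-07), and was at 6.8 ± 2.85 at the 8-cell stage. Zfp449 read 798, 1158, 1136 and 964 at the 1-cell stage, against 212, 120.4, 128 and 158 at the 2-cell stage. Its change was -2.58 ± 0.20 (SE, adjusted p = 4.58e-10), and it read 94.4 ± 23.1 in blastocysts. Zfp58, named after its values were seen, went from 778 ± 311 to 110.2 ± 40.8, a change of -2.58 ± 0.35 (SE, adjusted p = 3.94e-06). In all 6 genes the 1-cell and 2-cell arrays lay apart.

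From 2-cell to 8-cell the largest changes were the falls of Zfp616 and Zfp560, followed by the rise of Zfp593 described above and the fall of Zfp709. Zfp616 read 2058, 2664, 1788 and 1501 at the 1-cell stage, 462, 463, 318 and 453 at the 2-cell stage and 25.5, 6, 2.9 and 5.3 at the 8-cell stage. The stages did not overlap, and the changes were -2.17 ± 0.28 (SE, adjusted p = 1.34e-06) and -3.93 ± 0.28 (SE, adjusted p = 5e-11). Zfp709, at 336 ± 54.1 in oocytes and 315 ± 43.2 at the 1-cell stage, read 445, 330.1, 283 and 332 on the 2-cell arrays and 15.5, 42.2, 21.7 and 17.3 on the 8-cell arrays, a change of -3.08 ± 0.24 (SE, adjusted p = 3.55e-10). Zfp560 read 4637, 3334, 1605 and 1998 at the 2-cell stage, against 186, 330, 212 and 193 at the 8-cell stage. The 2-cell arrays spread widely but lay above all 8-cell arrays, with a change of -3.45 ± 0.30 (SE, adjusted p = 1.55e-09). Its other probe set, already at 57.1 ± 12.1 at the 2-cell stage, read 58.6 ± 7.35 at the 8-cell stage (change 0.03, adjusted p = 0.948). Zfp513 fell from 696 ± 89.5 to 93.8 ± 28.5 (adjusted p = 7.31e-10) and Zfp664 from 733 ± 199 to 173 ± 50.8 (adjusted p = 5.22e-07), where the other probe set of Zfp664 changed by -0.49 and did not pass (adjusted p = 0.388). The summed oocyte markers given above were lower at the 8-cell stage too, with 8 of the 9 called lower and Khdc3 higher, and their part in these falls was not tested. Intensities were read in amplified RNA of whole embryos, so they do not give the amount of a transcript per cell.

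**Figure D4:**
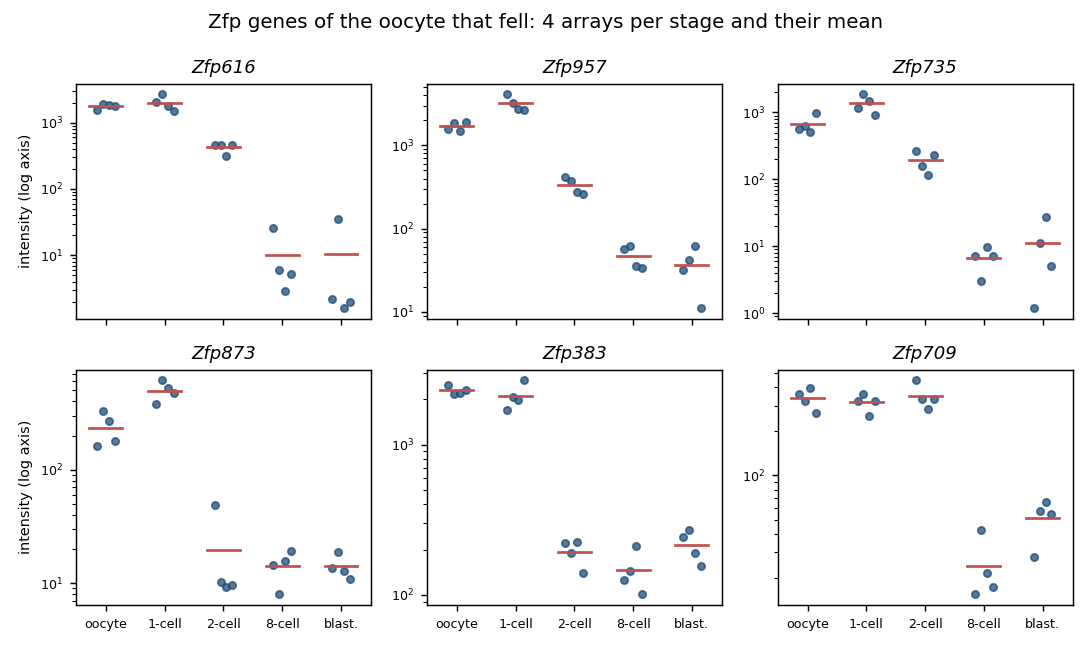
Points are the 4 arrays of each stage and bars their mean, as intensity on a log axis, for 6 Zfp genes lower in blastocysts than in oocytes. Zfp383 and Zfp873 drop at the 2-cell stage, Zfp709 only at the 8-cell stage, from 283.3 to 445.4 down to 15.5 to 42.2, and Zfp616, Zfp957 and Zfp735 in both steps.

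Rises from 2-cell to 8-cell were called in 12.4% of the Zfp genes and falls in 18.1%, against 15% and 17.7% of all named genes. Zfp934 read 7.1, 8.3, 10.4 and 29.7 on the 2-cell arrays, 217, 168, 168 and 228 on the 8-cell arrays and 677, 1019.9, 564 and 957 on the blastocyst arrays. Each of these stages lay wholly above the one before it, with changes of 2.70 ± 0.31 (SE, adjusted p = 2.52e-07) and 1.91 ± 0.31 (SE, adjusted p = 8.84e-05). Zfp12 read 21.4, 11.9, 35.1 and 33.7 on the 2-cell arrays, against 207, 232, 166 and 322 on the 8-cell arrays. No array overlapped, and the change was 2.47 ± 0.33 (SE, adjusted p = 2.34e-06). Zfp180 read 52.4, 108, 131 and 136 on the former, against 379, 579, 356 and 425 on the latter. Its 8-cell arrays stood above all 16 others, with a change of 1.88 ± 0.33 (SE, adjusted p = 9.9e-05).

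From 8-cell to blastocyst Zfp507 had the largest rise. It read 50.2, 73.1, 51 and 159 on the 8-cell arrays and 816, 427, 338 and 791 on the blastocyst arrays. The blastocyst arrays stood above all 16 others, with a change of 2.59 ± 0.41 (SE, adjusted p = 6.04e-05), and a dimmer probe set read 76.7 ± 28.7 and 91.6 ± 24.5 (adjusted p = 0.753). Zfp667 read 182, 131, 171 and 184 at the 8-cell stage, against 986, 598, 976 and 355 in blastocysts. The blastocyst arrays differed widely among themselves but were all above the rest, with a change of 1.90 ± 0.25 (SE, adjusted p = 3.85e-06). The summed trophectoderm markers given above were also highest in blastocysts. Of the 3 measured inner cell mass markers, L1td1 rose from 409.9 ± 178 at the 8-cell stage to 6305 ± 3570 in blastocysts (adjusted p = 1.53e-08) and Il6st from 64.2 ± 47.3 to 270.1 ± 80.5 (adjusted p = 0.000361), while Esrrb fell from 657 ± 76.9 to 389.8 ± 85.7 (adjusted p = 0.0044). The summed inner cell mass markers were 3676 to 11831 per blastocyst array, mostly L1td1, and at most 1922 before. The part of these markers in the rises was not tested.

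Zfp820 had the largest fall into the blastocyst. It read 708, 731, 1061 and 1311 on the 8-cell arrays and 338, 131, 89.3 and 21.4 on the blastocyst arrays. The groups did not overlap, and the change was -2.91 ± 0.41 (SE, adjusted p = 1.11e-05). Zfp213 read 181 ± 44.1 and 71 ± 44.9 (adjusted p = 0.0264), a call that ended without 8-cell replicates 3 (0.0714) or 4 (0.0696) or blastocyst replicates 3 (0.104) or 4 (0.0862).

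**Figure D5:**
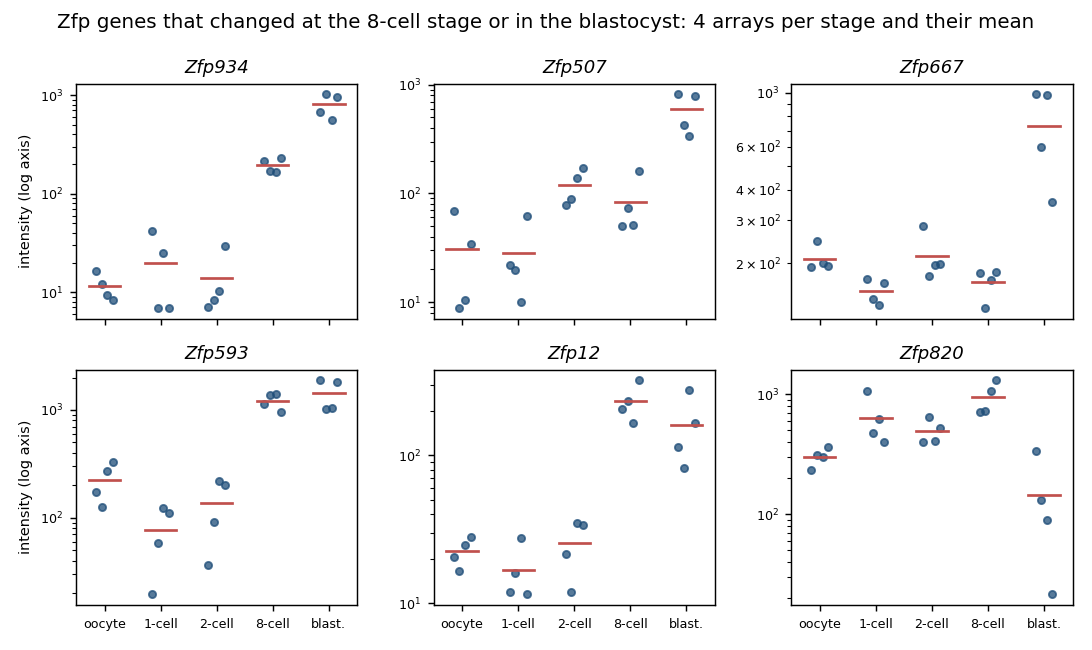
Points are the 4 arrays of each stage and bars their mean, as intensity on a log axis, for 6 Zfp genes with late changes. Zfp934, Zfp593 and Zfp12 rise at the 8-cell stage, Zfp507 and Zfp667 in the blastocyst, and Zfp820 falls from 708 to 1311 at the 8-cell stage to 21.4 to 337.5 in the blastocyst.

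Across the whole period the largest net losses, blastocyst against oocyte, were those of Zfp616 (-6.00 log2 units, adjusted p = 8.47e-15), Zfp957 (-5.01, adjusted p = 2.28e-14) and Zfp735 (-4.49, adjusted p = 5.23e-12). The largest net gains were those of Zfp934 (4.67, adjusted p = 1e-11), Zfp637 (3.78, adjusted p = 2.89e-11) and Zfp507 (3.66, adjusted p = 8.45e-08). In each of these 6 genes the oocyte and blastocyst arrays did not overlap.

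Some genes were bright at every stage or hardly moved. Zfp655, which binds the signalling protein Vav, read 4022 ± 312 for oocytes, then 6106 ± 1300 (1-cell), 3275 ± 243 (2-cell), 1532 ± 366 (8-cell) and 1581 ± 675 (blastocyst). It fell from 1-cell to 2-cell (adjusted p = 0.00763, lost with quantile normalization), where its other probe sets changed by -1.33 and -1.06 (adjusted p = 9.64e-05 and 5.59e-05). From 2-cell to 8-cell it fell again (adjusted p = 0.000692), and those probe sets changed by -0.50 and -1.16 (adjusted p = 0.116 and 1.31e-05). Zfp280b read 2691 ± 264 at the 2-cell stage and 1359 ± 241 at the 8-cell stage, a change of -0.99 ± 0.17 (SE, adjusted p = 7.12e-05). Zfp469, a gene of corneal collagen, ranged from 178 ± 73.2 to 216 ± 34.4, Zfp595 from 340 ± 52.6 to 409 ± 68.3 and Zfp646 from 230.4 ± 47.2 to 278 ± 63.6. The stage means of these last 3 lay within 0.32 log2 units, and none passed the F test, with adjusted p from 0.777 to 0.798. A dimmer probe set of Zfp595 was called higher in blastocysts than at the 8-cell stage, at 99.2 ± 9.61 against 37.8 ± 33.2 (adjusted p = 0.0185).

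Probe sets of the same gene did not always move together. Of the 193 genes 55 had several tested probe sets, and among 72 calls where another probe set was tested, it was called the same way in 30 and the opposite way in 4. Zfp560 rose from 1-cell to 2-cell by its brightest probe set, from 1198 ± 151 to 2893 ± 1380 (adjusted p = 0.00561), and fell by the other, from 193 ± 40.9 to 57.1 ± 12.1 (adjusted p = 0.000544). Zfp407 fell by its brightest probe set, from 1057 ± 150 to 281 ± 75.5 (adjusted p = 4.51e-08), and rose by the other, from 27.9 ± 30.2 to 106 ± 9.41 (adjusted p = 0.0259). Zfp715 rose from 5.95 ± 1.68 to 213 ± 46.9 (adjusted p = 1.54e-06) and was at 472 ± 85.1 in blastocysts. Its other probe set fell from 114 ± 8.05 to 32.9 ± 28.4 (adjusted p = 0.00634) and to 12 ± 3.76, so that oocyte and blastocyst also differed in opposite directions. Which transcripts each probe set reads was not analysed here.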

How the data were processed

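Intensities of 22575 probe sets on 20 arrays were used as deposited by the authors, on a linear scale; how probes were summarized and scaled is not given here by any label or header. Total RNA had been amplified in 2 rounds per the labels. Stages and replicate numbers came from the sample titles, and every column was used. Probe sets other than the 64 controls were named through the platform annotation, with symbols updated by Entrez identifier to the mouse table of GRCm38.p6: 14661 had 1 symbol, 245 several and 7605 none, and 14486 were matched. The deposited intensities were transformed here to log2(value + 20), with the pseudocount set near the table's 20th percentile, and the 15234 probe sets at or above 82.6 on at least 4 arrays were fitted with limma 3.58.1 in R 4.3.3 (lmFit, eBayes with intensity trend) as 5 stage means, leaving 15 residual degrees of freedom. Benjamini-Hochberg adjustment ran within each comparison, and the F test was over the 4 consecutive ones. The script was tested on simulated data. The number of arrays limits the precision, and intensities of different probe sets were not compared.

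Genes were named by a rule: the 5 largest rises and falls per consecutive comparison among called genes without overlapping arrays, the 3 with the largest gap per stage, the 4 with the highest mean, the 3 with the smallest range, all measured members of 3 role lists, the genes at the threshold, and those whose probe sets disagreed. The members and lists were chosen with earlier results of these data known. Alternatives were pseudocounts of 5 and 80, no filter and a filter at the 75th percentile, quantile normalization, median centring, no intensity trend, array weights, no x_at or s_at probe sets, the mean of a gene's probe sets, platform symbols, a replicate block, and leaving out each array. Domain content of the proteins was not analysed here.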

Additional observations from a re-analysis of the deposited data

Results flagged for a closer look

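Among the 62 named genes, 310 groups of 4 arrays were examined for an array whose gap to the nearest of the other 3 took up more of the group's range than Dixon's critical value allows at 95%. There were 20 such arrays among the 310 groups, and chance flags about 1 in 20 groups. In oocytes Zfp322a read 151.8 on replicate 1 against 112.7 to 116.3 on the other 3, and Zfp667 read 245.5 on replicate 2 against 192.9 to 199.8 on the other 3. At the 1-cell stage Zfp410 read 116.4 on replicate 1 against 20.5 to 27.5 on the other 3, and Zfp644 read 624.0 on replicate 2 against 481.5 to 493.7 on the other 3. Zfp653 read 264.6 on replicate 1 against 377.3 to 398.8 on the other 3, and Zfp819 read 109.4 on replicate 1 against 20.4 to 24.4 on the other 3. At the 2-cell stage Zfp365 read 155.4 on replicate 2 against 77.4 to 84.3 on the other 3, and Zfp407 read 394.1 on replicate 4 against 238.1 to 246.0 on the other 3. Zfp616 read 317.5 on replicate 3 against 453.4 to 463.1 on the other 3, and Zfp638 read 20.9 on replicate 3 against 68.5 to 78.8 on the other 3. Zfp644 read 967.9 on replicate 3 against 677.1 to 707.5 on the other 3, and Zfp715 read 143.9 on replicate 2 against 223.7 to 242.5 on the other 3. Zfp873 read 49.0 on replicate 1 against 9.2 to 10.2 on the other 3. At the 8-cell stage Zfp850 read 42.0 on replicate 3 against 15.9 to 17.8 on the other 3. In blastocysts Zfp583 read 113.5 on replicate 2 against 158.5 to 167.7 on the other 3, and Zfp595 read 418.7 on replicate 4 against 309.4 to 317.2 on the other 3. Zfp616 read 35.8 on replicate 2 against 1.6 to 2.2 on the other 3, and Zfp622 read 761.7 on replicate 2 against 485.8 to 515.1 on the other 3. Zfp646 read 200.8 on replicate 3 against 273.7 to 289.6 on the other 3, and Zfp715 read 345.4 on replicate 4 against 497.7 to 523.3 on the other 3.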

How the results depend on the processing

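The counts of Zfp genes higher or lower in each comparison, and of genes changed among stages, stayed within 1.5 times their value under every alternative other than leaving out an array, except for the 5 rises from oocyte to 1-cell. These became 2 with a pseudocount of 5, 2 without a filter, 1 with quantile normalization and 3 without an intensity trend, and the cause was not tested. With the replicate number as a block they became 2. The block moved no other count by that much. Deviations of arrays with the same number correlated between -0.062 and 0.063, so no shared deviation was seen over the tested probe sets together. A pairing that touches few genes would not show in these values, and the labels do not say whether the numbers mark a shared pool. When 1 array was left out, these rises numbered 1 to 5, the falls from oocyte to 1-cell 4 to 11 and those from 8-cell to blastocyst 11 to 18. Of 118 called changes of named genes, 1339 of 1400 values under the other alternatives kept direction and call, 60 lost the call and 1 reversed. That was the rise of Zfp560 from 1-cell to 2-cell, at -0.16 (adjusted p = 0.644) with the mean of its probe sets, which were called in opposite directions. The 1339 values include some that could not move. Platform symbols repeated the main fit, since no symbol of the 193 genes had been updated. Genes with 1 tested probe set kept their log2 changes with the mean of probe sets. With 1 array left out, 2248 of 2360 values kept the call, 112 lost it and none reversed. The stricter filter kept 133 of the 193 genes. Low readings cannot be separated from background because the table used here holds no detection calls.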

Other observations

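Zfp genes lie in clusters, and 33 pairs of the 193 genes are direct neighbours among the protein-coding genes of GRCm38.p6, involving 54 genes. Chromosome 7 holds 52 of the genes, chromosome 17 holds 24 and chromosome 13 holds 18. Both genes of a pair were highest at the same stage in 7 of the 33 pairs. Over all 193 genes each stage was the highest for 16.6% to 24.9%, and the number of matching pairs among unrelated genes was not computed. The examples that follow were chosen after their values were seen. Neighbours Zfp809 and Zfp599 both rose from 1-cell to 2-cell, by 2.43 ± 0.30 (SE, adjusted p = 8.27e-07) and 3.23 ± 0.30 (SE, adjusted p = 7.88e-09). Neighbours Zfp617 and Zfp961 did so too, by 1.60 ± 0.33 (SE, adjusted p = 0.000818) and 0.70 ± 0.16 (SE, adjusted p = 0.00227). Zfp667 and Zfp583, also neighbours, had different profiles: Zfp667 was highest in blastocysts, at 729 ± 308 (SD, n = 4) against 208 ± 25 in oocytes, and Zfp583 in oocytes, at 291 ± 62.3 against 149.9 ± 24.6 in blastocysts. Zfp229 and Zfp820 differed as well, with Zfp229 at 927 ± 194 in oocytes and 179 ± 19.8 at the 8-cell stage, and Zfp820 at 301 ± 54 and 953 ± 288. No test of neighbours against other pairs was made.

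Other zinc finger families moved as follows between the 1-cell and 2-cell stages. Of 28 measured Zbtb genes 7 rose and 3 fell, of 6 Zkscan genes 3 fell and 3 did not pass, of 7 Klf genes 1 rose and 2 fell, of 8 Zc3h genes 2 rose and 2 fell, of 4 Zmym genes 1 rose, and the 6 measured Zscan genes did not pass. Of all named genes 13.4% were higher and 13% lower in this step. From 8-cell to blastocyst 6 Zbtb genes fell and 22 did not pass, against 7.78% of all named genes lower, with a median change of -0.31 log2 units, against -0.04 for all named genes. These were Zbtb10, Zbtb11, Zbtb4, Zbtb41, Zbtb43 and Zbtb6. Other families differed in the same step. Of 6 Zkscan genes 3 rose and of 6 Zscan genes 2 rose, with none lower, against 11.1% of all named genes higher. Their median changes were 0.56 and 0.50 log2 units. Of 7 Klf, 8 Zc3h and 4 Zmym genes 1 each fell and none rose.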
